A study of Homo sapiens with 4 samples.

Results

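The clustered protocadherins of chromosome 5 were examined in 4 RNA-seq libraries made from total RNA of PC-3, a human prostate cancer line first grown from a metastasis in bone. PC-3-RRM2 cells (2 libraries) carried a lentiviral vector encoding RRM2, the small subunit of ribonucleotide reductase, and PC-3-EV cells (2 libraries) carried the empty vector. The PC-3-RRM2 cells were a stable line kept under puromycin, and the labels do not say whether the cells of either group were a pool or 1 clone, or whether their libraries came from separate cultures. The p-values below can thus speak only for the spread among these 4 libraries, and that spread may be technical. Members were chosen by gene symbol and chromosome, which took 48 of the 17634 genes in the table: 15 of the alpha cluster, 14 of the beta cluster and 19 of the gamma cluster. The family itself was picked with results of this contrast between PC-3-RRM2 and PC-3-EV in view, so the members' fold changes are given as a description, without p-values.

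Clustered protocadherins are cadherin-like membrane proteins that bind their own kind on a neighbouring cell, and they are best known for giving neurons a surface identity. In the alpha and gamma clusters, each variable exon has its own promoter and encodes an extracellular part, a membrane span and the start of the tail, and is spliced to constant exons that encode the rest of the tail. Beta genes are complete within a single exon and lack such a shared tail. The choice of promoter is known to involve DNA methylation and looping of CTCF-bound promoters to distant enhancers, and the promoters carry a conserved element around a CGCT core. The C-type genes at the end of the alpha and gamma clusters are known in neurons for steadier expression than the others.

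The table placed the alpha rows on chromosome 5 from 140786136 to 141012345, the beta rows from 141051376 to 141226289 and the gamma rows from 141330685 to 141512982, all on GRCh38. Of the genes that the symbol rule takes in RefSeq (GRCh38.p14), 48 of 54 had a row, and each of the 48 overlapped the RefSeq gene of its name. PCDHA14, PCDHB6, PCDHB15, PCDHGA3, PCDHGB1 and PCDHGC4 were not analysed here. All 15 alpha rows ended at 141012345, and 17 of the 19 gamma rows ended at 141512980, since these rows include the constant exons. In the GENCODE 29 transcripts, the first 2 constant exons belonged to 15 of 15 alpha members and to 19 of 19 gamma members. The third, of 2718 bases in alpha and 2033 bases in gamma, was shared in the same form by 14 of 15 and by 18 of 19. Both short exons of each cluster are shown because a read that falls within them cannot name the member it came from. They lie at chr5:140978949-140979007 and chr5:140982475-140982563 in alpha and at chr5:141494807-141494865 and chr5:141505393-141505481 in gamma, and are printed from the plus strand of GRCh38.
Alpha constant exon of 59 bases: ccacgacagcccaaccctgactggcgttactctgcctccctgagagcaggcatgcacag
Gamma constant exon of 59 bases: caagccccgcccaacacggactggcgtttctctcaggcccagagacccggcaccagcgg
Alpha constant exon of 89 bases: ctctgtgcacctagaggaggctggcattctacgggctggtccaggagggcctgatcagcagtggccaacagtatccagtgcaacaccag
Gamma constant exon of 89 bases: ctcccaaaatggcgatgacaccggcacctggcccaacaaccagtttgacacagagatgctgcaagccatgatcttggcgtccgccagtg

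Shared bases made up 45.5% to 54.9% of an alpha transcript (median 54.5%) and 45.6% to 47.6% of a gamma transcript (median 47.4%), against 0% of the 14 beta transcripts, each of 1 exon. The deposited values were estimated counts, and how reads of shared exons were divided among rows is not given in the sources used here. Among all rows of a library 56.0% to 57.7% of the values were whole numbers, at a tolerance of 1e-09. None of the 15 alpha rows was whole in any library. In the gamma cluster 0 and 1 of 19 rows were whole in PC-3-RRM2 and 0 and 0 in PC-3-EV, and in the beta cluster 5 and 4 of 14 rows were whole in PC-3-RRM2 and 2 and 3 in PC-3-EV. Values of single alpha and gamma members are therefore uncertain, while the sum over a cluster does not change with how reads were divided among its rows. Reads given to genes of the family without a row, or dropped, would still be missing from it. Beta genes are close paralogs, and reads that fit several of them share the same limit.

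RefSeq promoter windows, from 250 bases before to 50 bases after a gene's start, were at hand for 43 of the 48 members, and PCDHA3, PCDHA13, PCDHB11, PCDHGA12 and PCDHGC5 had none. The core CGCT, read on both strands, was in the windows of 42 of the 43, PCDHA9 being the exception, against 71.9% of 27305 genes, so the 4 letters alone set few genes apart. Longer words around it, chosen after the sequences were seen, went with the cluster. ATGTCGCT was in 9 of 13 alpha windows and 0.282% of all genes. GTGGCGCT was in 12 of 13 beta windows and 1.38% of all genes. GCGCCGCT was in 9 of 17 gamma windows and 3.88% of all genes, and GCGTCGCT was in 3 of 17 gamma windows and 1.11% of all genes. A match describes the letters and is not evidence of binding. Stretches of 33 bases around the word (capitals) are shown for members whose values are described below, from the plus strand of GRCh38.p14.
PCDHA5, chr5:140821542-140821574: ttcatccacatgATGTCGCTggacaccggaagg
PCDHA8, chr5:140841130-140841162: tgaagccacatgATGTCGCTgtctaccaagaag
PCDHA12, chr5:140875244-140875276: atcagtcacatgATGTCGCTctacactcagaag
PCDHB2, chr5:141094544-141094576: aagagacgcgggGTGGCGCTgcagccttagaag
PCDHB9, chr5:141187074-141187106: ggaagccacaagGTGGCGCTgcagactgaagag
PCDHB12, chr5:141208643-141208675: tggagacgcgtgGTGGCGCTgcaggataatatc
PCDHGB2, chr5:141359921-141359953: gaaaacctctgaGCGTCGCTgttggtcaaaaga
PCDHGB5, chr5:141397863-141397895: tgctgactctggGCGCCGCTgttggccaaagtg

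The libraries held 30149181 and 30419769 estimated counts in PC-3-RRM2 and 37801301 and 30778321 in PC-3-EV. RRM2 averaged 97.7 ± 1.56 CPM in PC-3-RRM2 and 21.3 ± 0.705 CPM in PC-3-EV (SD, n = 2 each), a log2 fold change of 2.20, as the labels state. CPM are counts scaled to the library total after TMM scaling. Replicates differed more than sampling noise allows, by a chi-square of 15.9 per degree of freedom in the PC-3-RRM2 pair and 6.15 in the PC-3-EV pair, and the members' median absolute log2 difference within a pair was 0.29 in PC-3-RRM2 and 0.20 in PC-3-EV. Epithelial keratins were present, with KRT8 at 116 ± 24.4 CPM in PC-3-RRM2 and 115 ± 12.3 CPM in PC-3-EV. KRT19 was lower, at 217 ± 48.0 CPM in PC-3-RRM2 and 325 ± 43.7 CPM in PC-3-EV (log2 fold change -0.58), without overlap. KRT18 had 116 ± 6.91 CPM in PC-3-RRM2 and 106 ± 4.93 CPM in PC-3-EV (0.14). The epithelial adhesion genes CDH1 and EPCAM were higher in PC-3-RRM2, by log2 fold changes of 2.31 and 2.94. The epithelial genes thus did not all go 1 way.

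Of the 48 protocadherin rows, 39 passed the filter on low counts. A call needed an adjusted p under 0.05 (edgeR quasi-likelihood, Benjamini-Hochberg over 15781 genes) together with a change of more than 1.5-fold. By this measure 14 were called lower in PC-3-RRM2, 0 higher and 25 were not called. At an unadjusted p below 0.05, 23 were lower and 0 higher, and DESeq2 called 9 lower and 0 higher. Without PC-3-EV library 2 the edgeR count of lower members was also 9. Over all genes tested, 8.19% were called lower and 9.97% higher. Since the family was picked with this contrast in view, nothing is read from its share against those percentages. The members' median log2 fold change was -0.78, beside 0.00 over all genes, and 34 of 39 lay below 0. In 28 of 39 members both PC-3-RRM2 libraries were below both PC-3-EV libraries, which held for 33.2% of all genes tested, and only PCDHB3 had both PC-3-RRM2 libraries above both PC-3-EV libraries. The filter needed enough counts in only 2 libraries, so a row could pass on PC-3-EV values alone. Such rows, which could hardly come out higher, are part of these counts. Among the called members they were PCDHA3, PCDHA7, PCDHA10 and PCDHB11, with at most 0.296 CPM in a PC-3-RRM2 library. In cultured cells measured in bulk, fewer cells that express a gene and less RNA per cell cannot be told apart.

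**Figure D1:**
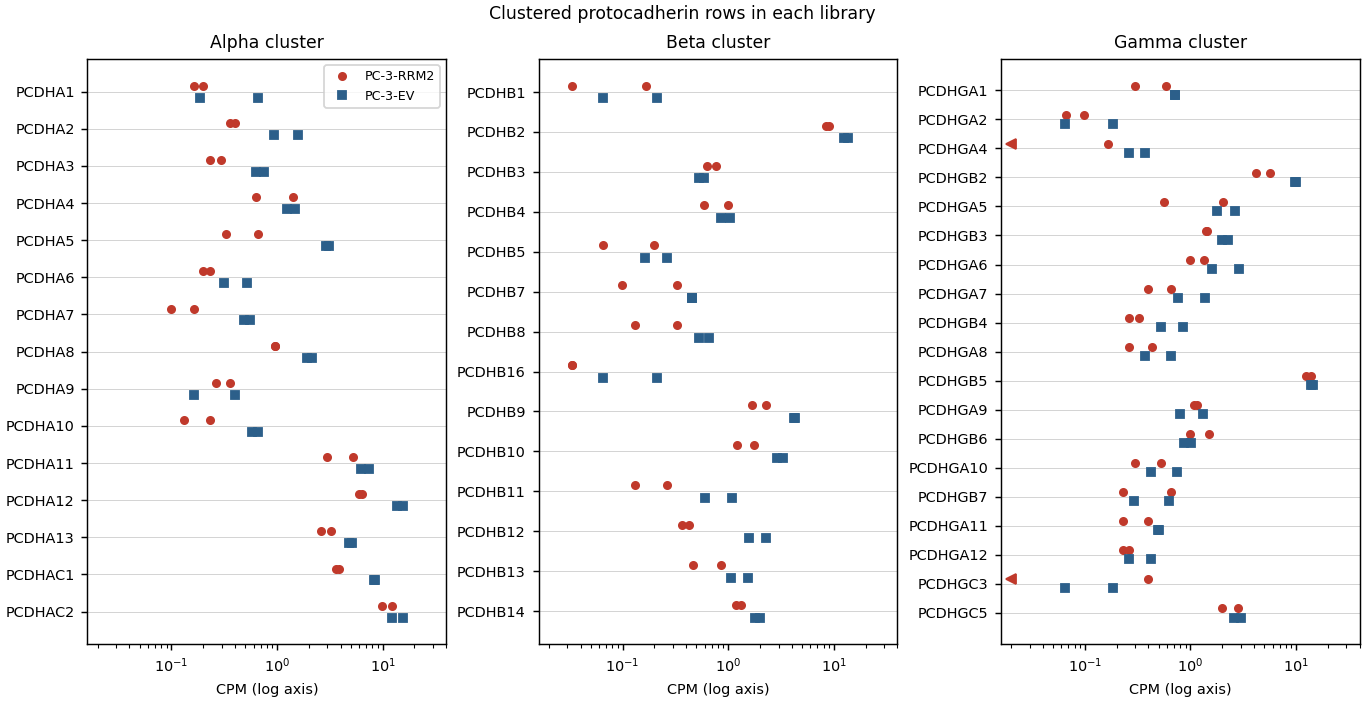
CPM (log axis) of the 48 protocadherin rows in each library, in the order of their position in the alpha, beta and gamma clusters; circles are the 2 PC-3-RRM2 libraries, squares the 2 PC-3-EV libraries, and a triangle at the left edge marks a value of 0. Both PC-3-RRM2 libraries of PCDHA12 and PCDHAC1 lie left of both PC-3-EV libraries, while the groups of PCDHGB5 nearly meet.

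All 3 clusters had lower sums in PC-3-RRM2, with the alpha sum the lowest relative to PC-3-EV. Summed over its 15 rows, the alpha cluster had 32.2 and 32.1 CPM in PC-3-RRM2, against 58.5 and 60.2 CPM in PC-3-EV. The beta cluster had 17.5 and 16.4 CPM in PC-3-RRM2, against 27.9 and 30.8 CPM in PC-3-EV. The gamma cluster had 31.9 and 28.5 CPM in PC-3-RRM2, against 41.1 and 40.9 CPM in PC-3-EV. Both PC-3-RRM2 libraries lay below both PC-3-EV libraries in all 3 sums. With the rows of a cluster replaced by their sum, the log2 fold change was -0.88 (SE 0.084) for alpha, -0.79 (SE 0.11) for beta and -0.44 (SE 0.096) for gamma. That is 1.85-fold lower for alpha and 1.73-fold lower for beta, both past the fold threshold of 1.5, and 1.36-fold lower for gamma, which is under it. These sums rest on 977 and 974 alpha counts in PC-3-RRM2 and 2211 and 1840 in PC-3-EV, on 531 and 498 beta counts in PC-3-RRM2 and 1056 and 942 in PC-3-EV, and on 968 and 865 gamma counts in PC-3-RRM2 and 1553 and 1252 in PC-3-EV.

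The balance between clusters also differed by library. The ratio of alpha to gamma counts was 1.01 and 1.13 in PC-3-RRM2, against 1.42 and 1.47 in PC-3-EV. The ratio of beta to gamma counts was 0.549 and 0.576 in PC-3-RRM2, against 0.680 and 0.752 in PC-3-EV. The ratio of alpha to beta counts was 1.84 and 1.96 in PC-3-RRM2, against 2.09 and 1.95 in PC-3-EV. The groups did not overlap in the ratios to gamma and overlapped in the ratio of alpha to beta. Whether the clusters differ in their change was not tested.

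**Figure D2:**
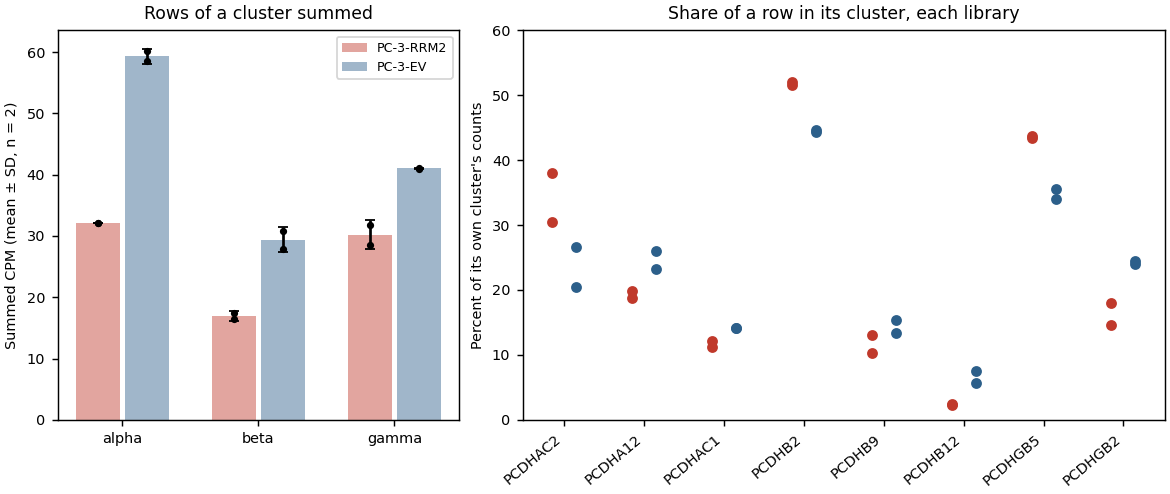
Left, summed CPM of the rows of each cluster (bars, mean; error bars, SD of 2 libraries; dots, libraries) in PC-3-RRM2 and PC-3-EV. Right, the percentage of its own cluster's counts held by 8 members chosen after their values were seen, each dot 1 library (left of each pair PC-3-RRM2); PCDHAC2, PCDHB2 and PCDHGB5 held larger shares in PC-3-RRM2 and PCDHA12, PCDHB12 and PCDHGB2 smaller ones.

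In the alpha cluster 9 of 13 tested members were called lower, and their log2 fold changes ran between -2.58 and 0.11 with a median of -1.16. PCDHA12, one of the variable-exon isoforms, had 6.03 and 6.40 CPM in PC-3-RRM2, against 13.6 and 15.7 CPM in PC-3-EV. Both PC-3-RRM2 libraries were thus below both PC-3-EV libraries, and its log2 fold change was -1.23 (SE 0.14). PCDHA5 had 0.659 and 0.330 CPM in PC-3-RRM2, against 2.88 and 3.07 CPM in PC-3-EV, without overlap. Its log2 fold change of -2.58 (SE 0.31) was the lowest of the 39 tested members. Further called isoforms were PCDHA8, with 0.955 and 0.956 CPM in PC-3-RRM2 and 1.90 and 2.13 CPM in PC-3-EV (log2 fold change -1.07), and PCDHA13, with 2.63 and 3.23 CPM in PC-3-RRM2 and 5.13 and 4.77 CPM in PC-3-EV (-0.76). Neither of them overlapped between groups. The call of PCDHA8 was lost without PC-3-EV library 2 (-1.04) and that of PCDHA13 without PC-3-EV library 1 (-0.72).

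A further 4 alpha isoforms were called lower at a mean below 1 CPM, whereas PCDHA1 and PCDHA9, as weakly expressed, overlapped between groups. PCDHA2 had 0.362 and 0.396 CPM in PC-3-RRM2, against 0.925 and 1.57 CPM in PC-3-EV (log2 fold change -1.69). PCDHA7 had 0.165 and 0.0989 CPM in PC-3-RRM2, against 0.555 and 0.490 CPM in PC-3-EV (-1.96). PCDHA10 had 0.132 and 0.231 CPM in PC-3-RRM2, against 0.582 and 0.654 CPM in PC-3-EV (-1.74). PCDHA3, the last of the called isoforms of this kind, had 0.296 and 0.231 CPM in PC-3-RRM2, against 0.635 and 0.752 CPM in PC-3-EV (-1.37). All 4 were separated between groups. PCDHA3 lost its call without any 1 of the 4 libraries (-1.56 to -1.21), and PCDHA2 without PC-3-EV library 2 (-1.33). PCDHA7 lost it without PC-3-EV library 1 (-1.88), PC-3-EV library 2 (-2.09) or PC-3-RRM2 library 2 (-1.65). PCDHA10 lost it without PC-3-EV library 1 (-1.85), PC-3-EV library 2 (-1.71) or PC-3-RRM2 library 1 (-1.40). These calls rest on few counts, and PCDHA3, PCDHA7 and PCDHA10 passed the filter on their PC-3-EV values alone.

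Of the C-type alpha isoforms 1 was called and the other was not, and the difference between them was not tested. PCDHAC1 had 3.59 and 3.89 CPM in PC-3-RRM2, against 8.25 and 8.47 CPM in PC-3-EV, and was called lower (log2 fold change -1.16, SE 0.15). PCDHAC2 had 12.2 and 9.79 CPM in PC-3-RRM2, against 15.6 and 12.3 CPM in PC-3-EV, and was not called (-0.34, SE 0.17). The highest PC-3-RRM2 value of PCDHAC2 was just under the lowest PC-3-EV value. Per kilobase of transcript, PCDHAC2 stood at 1.85 ± 0.287 CPM per kb in PC-3-RRM2 and 2.34 ± 0.389 CPM per kb in PC-3-EV, and PCDHA12 at 1.19 ± 0.05004 CPM per kb in PC-3-RRM2 and 2.79 ± 0.280 CPM per kb in PC-3-EV (SD, n = 2 each). By these values PCDHAC2 had the higher level of the pair in PC-3-RRM2, while in PC-3-EV the pair differed by about the spread between libraries. Shared bases made up 48.1% of the PCDHAC2 transcript and 54.8% of the PCDHA12 transcript. The order of the pair thus depends on how reads of the shared exons were divided and is uncertain.

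PCDHAC2 held 37.97% and 30.5% of the alpha counts in PC-3-RRM2, against 26.7% and 20.5% in PC-3-EV. PCDHA12 held 18.7% and 19.9% in PC-3-RRM2, against 23.2% and 26.0% in PC-3-EV. PCDHA5 held 2.07% and 1.02% in PC-3-RRM2, against 4.95% and 5.13% in PC-3-EV. The shares of each of these members did not overlap between groups. Shares in a cluster add up to the whole, so a row lowered less than its cluster's sum holds a larger share. PCDHA11 had 2.996 and 5.24 CPM in PC-3-RRM2, against 6.29 and 7.45 CPM in PC-3-EV, and was not called (log2 fold change -0.74, SE 0.25), but was called without PC-3-EV library 1 (-0.88) or PC-3-RRM2 library 2 (-1.19). PCDHA4 and PCDHA9 overlapped between groups and were not called, and PCDHA1 and PCDHA6 had at most 0.654 CPM in a library and were not tested. Among alpha members with a promoter window, 6 of the 7 tested with ATGTCGCT were called lower, and 1 of the 4 tested without it. Their median log2 fold changes were -1.69 with the word and -0.54 without it, and the word's part in this was not tested. The 4 without it include both C-type isoforms, PCDHAC1 and PCDHAC2, so the word cannot be told apart from the isoform class. Of the 6 called with it, PCDHA2, PCDHA7 and PCDHA10 had a mean below 1 CPM. PCDHA7 and PCDHA10 entered the split on their PC-3-EV values alone and could hardly come out higher. PCDHA1 and PCDHA6 also carry the word but were not tested. Nothing is thus read from the split. The called PCDHA3 and PCDHA13 had no window and are left out of the split. The same split in gamma, for either of its words, gave 1 of 11 called lower with a word (median -0.66) and 0 of 3 without (-0.57). In beta it gave 3 of 9 with GTGGCGCT (median -0.96) and 0 of 1 without a stretch of it before the start, PCDHB8 (-1.33).

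In the beta cluster 4 of 11 tested members were called lower, with a median log2 fold change of -1.06 and a range between -2.27 and 0.31. PCDHB12 had 0.428 and 0.363 CPM in PC-3-RRM2, against 1.59 and 2.29 CPM in PC-3-EV (log2 fold change -2.27, SE 0.33). PCDHB9 had 2.27 and 1.68 CPM in PC-3-RRM2, against 4.28 and 4.15 CPM in PC-3-EV (-1.09, SE 0.20). Both single-exon genes were separated between groups and were called under every alternative tried. PCDHB10 had 1.75 and 1.22 CPM in PC-3-RRM2, against 2.88 and 3.30 CPM in PC-3-EV (-1.06, SE 0.24). PCDHB11 had 0.263 and 0.132 CPM in PC-3-RRM2, against 0.608 and 1.08 CPM in PC-3-EV (-2.05, SE 0.51), and its call was lost without PC-3-EV library 2 (-1.65) or PC-3-RRM2 library 2 (-1.64). PCDHB9, PCDHB10, PCDHB11 and PCDHB12 lie next to each other in the table's coordinates, between 141187127 and 141212127.

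The beta gene with the highest level, PCDHB2, was not called. It had 9.09 and 8.47 CPM in PC-3-RRM2, against 12.5 and 13.6 CPM in PC-3-EV, without overlap, and its log2 fold change of -0.57 (SE 0.13) was below the fold threshold. It passed without PC-3-EV library 1 (-0.66) or PC-3-RRM2 library 1 (-0.62). PCDHB2 held 52.0% and 51.6% of the beta counts in PC-3-RRM2, against 44.6% and 44.3% in PC-3-EV. PCDHB12 held 2.45% and 2.22% in PC-3-RRM2, against 5.67% and 7.44% in PC-3-EV. The shares of these genes thus went opposite ways, though both genes had lower CPM in PC-3-RRM2. PCDHB14 had 1.19 and 1.32 CPM in PC-3-RRM2, against 2.01 and 1.80 CPM in PC-3-EV (-0.61), and was not called. PCDHB3, which lies just after PCDHB2, had 0.626 and 0.758 CPM in PC-3-RRM2, against 0.529 and 0.589 CPM in PC-3-EV. Its log2 fold change was 0.31 (SE 0.34), and it was singled out after its values were seen. PCDHB1, PCDHB5 and PCDHB16 had at most 0.264 CPM in a library and were not tested.

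In the gamma cluster 1 of 15 tested members was called lower, with a median log2 fold change of -0.57 and a range between -1.22 and 0.41. This was PCDHGB2, with 5.73 and 4.19 CPM in PC-3-RRM2, against 10.1 and 9.81 CPM in PC-3-EV (log2 fold change -1.003, SE 0.18). Its groups did not overlap, and it kept the call under every alternative tried. PCDHGB5, the gamma isoform with the highest level, had 13.9 and 12.4 CPM in PC-3-RRM2, against 14.6 and 13.9 CPM in PC-3-EV (-0.12, SE 0.12). Its highest PC-3-RRM2 value was just below its lowest PC-3-EV value, and it was singled out after its values were seen. Per kilobase, PCDHGB5 stood at 2.87 ± 0.237 CPM per kb in PC-3-RRM2 and 3.12 ± 0.103 CPM per kb in PC-3-EV, and PCDHGB2 at 1.08 ± 0.237 CPM per kb in PC-3-RRM2 and 2.16 ± 0.0406 CPM per kb in PC-3-EV (SD, n = 2 each).

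PCDHGB5 held 43.7% and 43.4% of the gamma counts in PC-3-RRM2, against 35.5% and 34.0% in PC-3-EV. PCDHGB2 held 17.9% and 14.7% in PC-3-RRM2, against 24.5% and 23.9% in PC-3-EV. The shares of neither overlapped between groups, and they lay on opposite sides, though both isoforms had lower CPM in PC-3-RRM2. PCDHGA6 had 0.988 and 1.35 CPM in PC-3-RRM2, against 1.61 and 2.91 CPM in PC-3-EV (log2 fold change -0.93), and was not called, but was called without PC-3-EV library 1 (-1.33) or PC-3-RRM2 library 2 (-1.17). PCDHGB3 had 1.45 and 1.42 CPM in PC-3-RRM2, against 2.25 and 1.99 CPM in PC-3-EV (-0.57), and was not called. PCDHGB4 had the lowest log2 fold change of the gamma cluster, -1.22 with an SE of 0.43, and was not called.

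Of the gamma A isoforms 0 of 8 tested were called (2 lower at an unadjusted p below 0.05) and of the gamma B isoforms 1 of 6. The C-type isoform PCDHGC5 had 2.80 and 1.98 CPM in PC-3-RRM2, against 3.01 and 2.58 CPM in PC-3-EV, with overlapping groups (log2 fold change -0.23). PCDHGA5 differed several-fold within a group, with 0.560 and 2.04 CPM in PC-3-RRM2 and 2.64 and 1.80 CPM in PC-3-EV. PCDHGA2, PCDHGA4, PCDHGA12 and PCDHGC3 had at most 0.425 CPM in a library and were not tested, and 1 of the PC-3-RRM2 libraries was at 0 for PCDHGA4 and PCDHGC3. The 33 bases shown above for PCDHGB5 are the same in PCDHGB4, whose level differed from it.

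Genes that start within 1 Mb of the clusters were set beside the members. Of 37 tested, 5 were called lower and 1 higher, with a median log2 fold change of -0.17. That is 13.5% lower and 2.70% higher, beside 8.19% and 9.97% of all genes tested. Of the 37, 28 had a log2 fold change below 0. In 21 of 37 both PC-3-RRM2 libraries were below both PC-3-EV libraries, against 33.2% of all genes. Lower values were thus not confined to the clusters. TAF7, a subunit of the general transcription factor TFIID whose gene lies between the beta and gamma clusters, had a mean of 108 ± 10.9 CPM in PC-3-RRM2 and 103 ± 1.28 CPM in PC-3-EV, with a log2 fold change of 0.07 (edgeR quasi-likelihood, Benjamini-Hochberg adjusted p = 0.542). DIAPH1, an actin nucleator just past the gamma cluster, was likewise not called (log2 fold change 0.01, edgeR adjusted p = 0.910). SLC25A2, also planned for this comparison, was not analysed here. Of the rows next to the clusters, ZMAT2, HARS2, HARS, DND1 and WDR55 before alpha and DIAPH1 and HDAC3 after gamma were not called. The rows named before alpha all lay below 0, with log2 fold changes between -0.33 (HARS) and -0.09 (DND1). In ZMAT2, HARS2, HARS and WDR55 both PC-3-RRM2 libraries were below both PC-3-EV libraries. DIAPH1 and HDAC3 (-0.04) overlapped between groups.

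The called neighbours lay farther out. NRG2, a neuregulin growth factor, fell to 5.37 ± 0.647 CPM in PC-3-RRM2, against 19.4 ± 1.19 CPM in PC-3-EV (log2 fold change -1.85, edgeR adjusted p = 7.64e-05). SPRY4, an inhibitor of receptor tyrosine kinase signalling, fell to 113 ± 4.51 CPM in PC-3-RRM2, against 277 ± 4.85 CPM in PC-3-EV (-1.29, edgeR adjusted p = 1.68e-05). SPRY4-IT1, which lies within SPRY4 (-1.45), ANKHD1-EIF4EBP3, a readthrough that overlaps ANKHD1 (-0.86), and the non-coding MALINC1 (-0.66) were also lower. The ANKHD1 row itself was not called and lay the other way. It had 150 ± 16.5 CPM in PC-3-RRM2 and 126 ± 5.33 CPM in PC-3-EV (0.25), without overlap between groups. The call of SPRY4-IT1 was lost without PC-3-EV library 1 (-1.003) or PC-3-RRM2 library 2 (-1.16). SPRY4 and SPRY4-IT1 lie on the same strand, and so do ANKHD1 and ANKHD1-EIF4EBP3. A read from a stretch that both rows of a pair cover thus cannot be assigned by strand. How such reads were divided was not tested, so the lower calls of SPRY4 and SPRY4-IT1 may not be separate results. PCDH1, a protocadherin outside the clusters, was higher at 8.47 ± 1.25 CPM in PC-3-RRM2, against 4.84 ± 0.187 CPM in PC-3-EV (0.81, edgeR adjusted p = 0.00695).

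**Figure D3:**
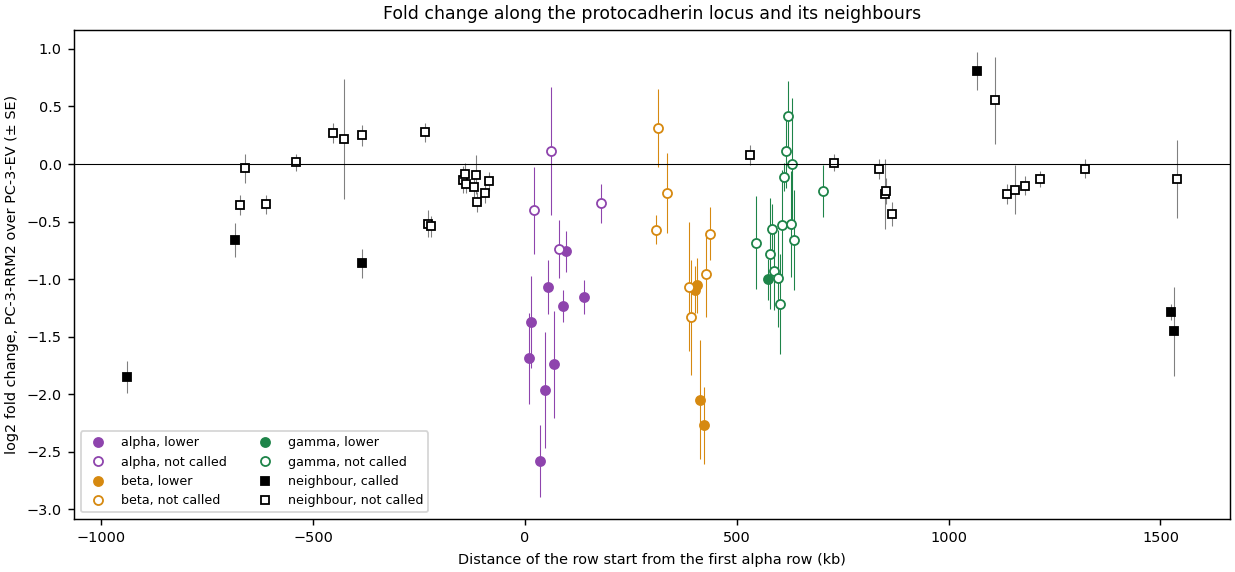
Log2 fold change of PC-3-RRM2 over PC-3-EV (± SE) against the distance in kb of each row's start from the first alpha row, for tested members of the 3 clusters (circles) and genes within 1 Mb (squares); filled symbols were called. The alpha members reach -2.58 and the beta members -2.27, while TAF7 between beta and gamma and DIAPH1 after gamma lie near 0. Of the 37 tested neighbours, 28 lie below 0.

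Genes that act on protocadherin promoters were taken from a list of 30 regulators, all tested, of which 3 were called, each of them higher (6 higher and 8 lower at an unadjusted p below 0.05). That is 10% called higher, near the 9.97% of all genes, and so no result about the list. The regulators were spread about 0, with a median log2 fold change of 0.00. CTCF, which binds protocadherin promoters and enhancers, had 45.9 ± 1.74 CPM in PC-3-RRM2 and 47.1 ± 0.909 CPM in PC-3-EV (log2 fold change -0.04, edgeR adjusted p = 0.767). The cohesin subunit RAD21 was under the fold threshold (log2 fold change 0.25, edgeR adjusted p = 0.0427). SMCHD1, a chromatin protein known in mouse to repress these clusters, had 142 ± 11.3 CPM in PC-3-RRM2 and 198 ± 2.22 CPM in PC-3-EV (-0.48, edgeR adjusted p = 0.00303), also under the fold threshold. DNMT3B, a DNA methyltransferase known in mouse to methylate protocadherin promoters, rose to 19.2 ± 1.26 CPM in PC-3-RRM2, against 9.56 ± 0.439 CPM in PC-3-EV (1.01, edgeR adjusted p = 0.000666). The maintenance methyltransferase DNMT1 did not change past the threshold (0.07, edgeR adjusted p = 0.549). The other called regulators were CXXC5, a zinc finger protein that binds unmethylated CpG (1.27, edgeR adjusted p = 0.000977), and EZH2, the histone H3K27 methyltransferase (0.59, edgeR adjusted p = 0.00457). EZH2 lay at the fold threshold and lost its call without PC-3-EV library 1 (0.56), PC-3-EV library 2 (0.56) or PC-3-RRM2 library 2 (0.51). The part of any of these in the protocadherin levels was not tested.

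Of 28 tested partners in processing and signalling, 3 were called, each of them higher (6 higher and 3 lower at an unadjusted p below 0.05). That is 10.7% called higher, again near the 9.97% of all genes. ADAM10, a protease known in mouse to shed protocadherin ectodomains, was not called (log2 fold change 0.12, edgeR adjusted p = 0.282). PTK2B, a focal adhesion kinase relative known in rodents to be bound and inhibited by protocadherin tails, rose to 26.2 ± 0.233 CPM in PC-3-RRM2, against 6.95 ± 0.110 CPM in PC-3-EV (1.91, edgeR adjusted p = 2.06e-05). ABI1 (0.89) and WASF3 (0.92), of the actin-regulating WAVE system, which alpha tails are known in mouse to recruit, were called higher as well. Among 17 tested genes of the wider cadherin superfamily, PCDH1 was called higher. FAT1 (-0.82), PCDH18 (-0.73) and CDHR3 (-0.95) were called lower. That is 17.6% called lower and 5.88% higher, beside 8.19% and 9.97% of all genes (6 lower and 3 higher at an unadjusted p below 0.05). With 17 genes tested, nothing is read from these shares.

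**Figure D4:**
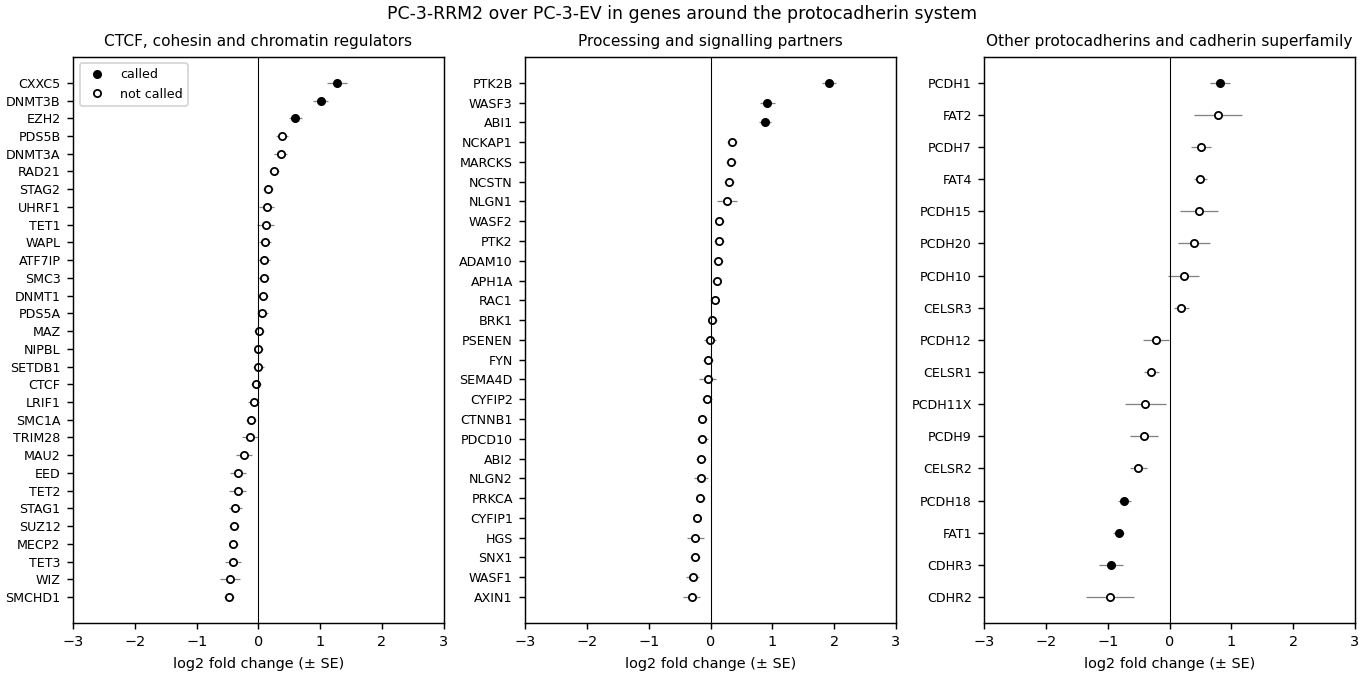
Log2 fold change of PC-3-RRM2 over PC-3-EV (± SE) for the tested regulators, partners (all but 1) and other cadherin superfamily genes, sorted by value; filled circles were called. DNMT3B, CXXC5 and EZH2 among regulators and PTK2B, ABI1 and WASF3 among partners were called higher, while CTCF lies near 0.

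Since clustered protocadherins are best known in neurons, neuronal markers were set beside them. Of 16 neuronal markers 12 were in the table and 10 tested, with MAP2 and GAP43 called higher and NEFL lower. Of the 10 tested, 7 had a log2 fold change above 0, with a median of 0.18. SYT1 (29.8 ± 2.40 CPM in PC-3-RRM2 and 39.9 ± 0.623 CPM in PC-3-EV), GAD1 (19.0 ± 0.693 CPM in PC-3-RRM2 and 13.8 ± 0.318 CPM in PC-3-EV), TUBB3 (17.4 ± 5.99 CPM in PC-3-RRM2 and 15.1 ± 2.34 CPM in PC-3-EV) and MAP2 (20.2 ± 1.35 CPM in PC-3-RRM2 and 9.85 ± 0.813 CPM in PC-3-EV) were expressed in both groups. SNAP25 and NCAM1 were below 0.3 CPM in every library, and ELAVL3, ELAVL4, DCX and STMN2 were not analysed here. The summed level of the 12 was 148 and 142 CPM in PC-3-RRM2, against 271 and 288 CPM in PC-3-EV, of which NEFL alone averaged 51.3 ± 2.47 CPM in PC-3-RRM2 and 195 ± 9.05 CPM in PC-3-EV. Without NEFL the other 11 summed to 95.2 and 92.1 CPM in PC-3-RRM2, against 82.3 and 86.4 CPM in PC-3-EV, the opposite direction. Endothelial markers summed to 38.2 and 38.1 CPM in PC-3-RRM2, against 79.9 and 80.9 CPM in PC-3-EV, and 4 of 4 tested were called lower. These were KDR (20.05 ± 0.740 CPM in PC-3-RRM2 and 32.5 ± 0.715 CPM in PC-3-EV), PECAM1 (9.27 ± 0.0149 CPM in PC-3-RRM2 and 23.6 ± 0.792 CPM in PC-3-EV), ROBO4 (6.44 ± 0.623 CPM in PC-3-RRM2 and 20.8 ± 1.79 CPM in PC-3-EV) and ESAM (1.96 ± 0.254 CPM in PC-3-RRM2 and 3.39 ± 0.425 CPM in PC-3-EV), while CDH5, TEK and VWF were below 0.3 CPM in every library. Fibroblast markers summed to 98.2 and 72.1 CPM in PC-3-RRM2 and 91.1 and 107 CPM in PC-3-EV, and leukocyte markers to 108 and 93.1 CPM in PC-3-RRM2 and 103 and 108 CPM in PC-3-EV. Most of the fibroblast sum was COL1A1 (68.2 ± 17.7 CPM in PC-3-RRM2 and 72.1 ± 11.9 CPM in PC-3-EV). Nearly all of the leukocyte sum was CD68 (99.4 ± 10.6 CPM in PC-3-RRM2 and 105 ± 3.90 CPM in PC-3-EV). PTPRC, CD14 and CSF1R had at most 0.593 CPM in a library, so that sum describes CD68 alone. Of the tested fibroblast markers PDGFRA and COL3A1 were called lower and LUM higher, and of the leukocyte markers CSF1R was called higher. CSF1R had only 18 and 11 counts in PC-3-RRM2 and 3 and 0 in PC-3-EV. It passed the filter on PC-3-RRM2 values alone and could hardly come out lower, so nothing is read from its call. The endothelial sum was lower in PC-3-RRM2, as the protocadherin sums were, and so was NEFL, and their part in the result was not tested.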

How the data were processed

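Total RNA of PC-3-RRM2 and PC-3-EV cells was sequenced, and the authors processed the reads in Partek Flow, as the submitters' processing notes name it. No version, aligner, annotation or strand setting is stated for it (not given in the sources used here). What they deposited were estimated counts per gene without normalization, here rounded to whole numbers. Of 17634 genes, 15781 passed filterByExpr (by group), and TMM factors scaled the libraries. The test was the edgeR quasi-likelihood F-test (edgeR 4.0.16 on R 4.3.3), adjusted by Benjamini-Hochberg. Calls required an adjusted p under 0.05 and more than a 1.5-fold change, as the study's own thresholds do. DESeq2 (version 1.42.0) and limma-voom (limma version 3.58.1) served as alternatives. The edgeR fit was also run on simulated counts of a fixed spread. Changes were put only into genes with more counts than most members have. That run thus does not cover members with few counts, and its outcome is not reported here.

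The members, the gene lists and the tests were chosen with earlier results of these data known. By the naming rule, members with a mean CPM of at least 1 or a call were eligible (26), and the 20 with the smallest p were given with their values. PCDHB3, PCDHGA5, PCDHGB4, PCDHGB5 and PCDHGC5 were named with values after these were seen. Neighbours, regulators, partners and other cadherins were named by rank of p among those called, beside a few set by function. Some planned genes are not reported here. Constant exons came from GENCODE 29, promoter windows from RefSeq. With 2 libraries a group, counting error is not the only limit, and depths were 30149181 to 37801301 estimated counts.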

Additional observations from a re-analysis of the deposited data

How the results depend on the processing

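The number of members called lower was 14 and stayed within 14 to 16 with RLE or upper-quartile factors, limma-voom and no filter on low counts, and when PC-3-EV library 1, PC-3-RRM2 library 1 or PC-3-RRM2 library 2 was left out. It was 9 under a stricter filter, where 22 members were tested, and 9 with DESeq2. Leaving out 1 library at a time gave 9 to 16. Under each of 12 alternatives, 0 members were called higher. Of the 14 called members, 7 kept their call under all 12 (PCDHA5, PCDHA12, PCDHAC1, PCDHB9, PCDHB10, PCDHB12 and PCDHGB2). DESeq2 did not call PCDHA3, PCDHA7, PCDHA8, PCDHA10 and PCDHB11, nor SPRY4-IT1 and EZH2 outside the family, and EZH2 was not called with RLE factors either. PCDHA11 was called lower with RLE or upper-quartile factors and limma-voom. The log2 fold changes of the sums stayed between -0.93 and -0.87 for alpha, -0.88 and -0.75 for beta and -0.53 and -0.36 for gamma, and no call of a sum changed. Some values near 0 changed sign when 1 library was left out: the log2 fold change then ranged between -0.0106 and 0.113 for DNMT1 (lowest without PC-3-EV library 1), -0.0874 and 0.0467 for DIAPH1 (below 0 without PC-3-EV library 2 or PC-3-RRM2 library 2), -0.0321 and 0.176 for TAF7 (lowest without PC-3-RRM2 library 2) and -0.104 and 0.00211 for CTCF (highest without PC-3-RRM2 library 1). DIAPH1 without PC-3-RRM2 library 2 was -0.0167. The cause of these changes was not tested.

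Replicate numbers did not pair the libraries, since the deviations of same-numbered libraries correlated at -0.41 across genes. With a replicate block 18 members were called lower. With the numbers crossed, an alternative chosen after seeing the data, 22 members were called lower. With 2 libraries a group, calls of members below 1 CPM rest on few counts.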
